A study of Mus musculus with 6 samples.

Results

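A set of 10 transcription factor genes of the SOX family was followed in mouse chondrocytes: Sox5, Sox6 and Sox9, which are required for cartilage, the SoxC genes Sox4, Sox11 and Sox12, the Sox9 relatives Sox8 and Sox10, and the SoxF genes Sox17 and Sox18. They were chosen by name, as the rows of the expression matrix whose Ensembl identifiers carry these symbols, and all 10 were found among 22032 genes. RNA-seq had been carried out on cells sorted as LIN-ALP-BMPR1B+, that is, negative for blood and vessel lineage antigens (CD31, CD45 and Ter119 are named for adults) and for alkaline phosphatase, and positive for a bone morphogenetic protein receptor. The labels place all samples in the knee, with 3 samples from embryos (embryonic day 16.5 in the methods, written as 16.5 weeks in the labels) and 3 from adults 2 months of age. The adult animals were male B6 mice. The sex of the embryos and the number of animals behind each sample are not given in the sources used here, so p-values measure only the spread between these samples.

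SOX proteins bind short AT-rich DNA sites through a high mobility group box and bend the DNA. SOX9 drives the commitment of mesenchymal cells to cartilage and switches on the genes of the cartilage matrix, and the SoxD proteins SOX5 and SOX6, which have no activation domain of their own, help it to act on the same enhancers. SoxC proteins are activators of immature progenitor cells in many tissues, SOX10 is a factor of neural crest and Schwann cells, and SOX17 and SOX18 act in blood and lymph vessels.

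In the adult samples Sox9 and Sox5 were higher than in the embryonic samples, by 1.64-fold and 1.54-fold in mean TPM, while Sox6 was 1.93-fold lower. All 3 SoxC genes were lower, and Sox11 lay between 58.6 and 72.6 TPM in the embryonic samples but at most 1.22 TPM in the adult ones. Sox8 and Sox10 were low at both stages and did not pass the test, and Sox17 and Sox18 were close to 0. TPM gives a transcript's share of all transcripts after correction for length, so levels of different genes can be set side by side, but it keeps no read depth, and errors are therefore given as the spread between samples.

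The stages were compared with limma on log2(TPM + 1), with Benjamini-Hochberg adjustment over 13125 genes that averaged 1 TPM or more in the 6 samples. Of the 10 SOX genes, 8 reached that level. Of these 8, 6 passed an adjusted p of 0.05, against 45.3% of all genes tested. In adult samples 2 of the 8 were higher, where 23.9% of all genes were, and 4 were lower, where 21.4% were. The values of the stages did not overlap for 6 of the 8, as for 56.5% of all genes. The stages differed in a large part of the transcriptome, and these counts over 8 genes are given as a description.

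**Figure D1:**
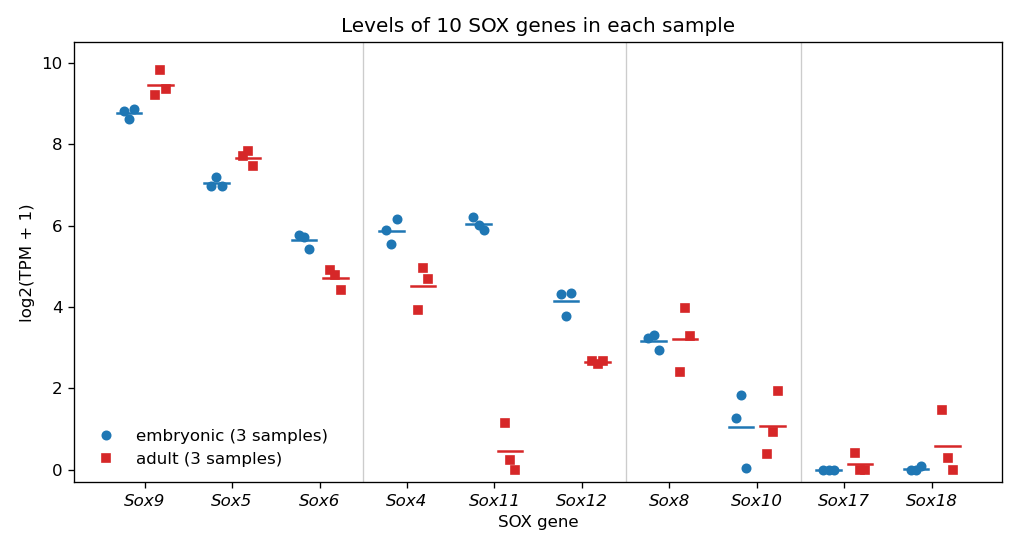
Each point is the log2(TPM + 1) of one SOX gene in one sample (blue circles, 3 embryonic samples; red squares, 3 adult samples), and short lines mark stage means. Sox9 and Sox5 stood highest at both stages, Sox6 and the SoxC genes Sox4, Sox11 and Sox12 were lower in every adult sample than in any embryonic sample, and Sox11 dropped to at most 1.22 TPM.

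The order of the levels differed between the stages. In embryonic samples Sox9 stood first with a mean of 436 TPM and Sox5 came next with 132 TPM, followed by Sox11, Sox4 and Sox6 at 65.1, 58.2 and 48.9 TPM. The ranges of Sox11 and Sox4 overlapped, as did those of Sox4 and Sox6, whereas Sox12, Sox8 and Sox10 followed in steps without overlap between neighbours. In adult samples Sox9 (715 TPM) and Sox5 (203 TPM) again stood first and apart from each other and from the rest. Sox6 and Sox4 came next with means of 25.4 and 22.9 TPM and overlapping ranges, and Sox8 overlapped both Sox4 above it and Sox12 below it. Sox10, Sox18, Sox11 and Sox17 could not be placed in order in adult samples because each overlapped its neighbour. Among all genes of a sample, Sox9 ranked between 326 and 396 in embryonic and between 107 and 211 in adult samples.

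Sox9 (ENSMUSG00000000567, chr11:112782224-112787760, plus strand, GRCm38) measured 452, 392 and 465 TPM in embryonic samples and 589, 901 and 656 TPM in adult samples. Each adult sample exceeded every embryonic sample, with adult replicate 2 the highest of all. On the log2(TPM + 1) scale the mean went from 8.77 ± 0.13 (SD, n = 3) to 9.46 ± 0.32 (n = 3), a difference of 0.69 (standard error 0.169, limma adjusted p = 0.01001). Without adult replicate 2 the log2 difference was 0.51 and still passed.

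Sox5 (ENSMUSG00000041540, chr6:143828425-144781977, minus strand) measured 125, 146 and 125 TPM in embryonic samples and 209, 226 and 175 TPM in the adult ones. The groups did not overlap, and the log2 difference was 0.62 (standard error 0.143, limma adjusted p = 0.00773). In the annotation 9.25% of its exonic bases also lie in exons of Sox5os1, a gene with no row in the matrix. The strand setting of the counting is not given in the sources used here.

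Sox6 (ENSMUSG00000051910, chr7:115470872-116038796, minus strand), the close relative of Sox5, moved the other way. It measured 53.2, 51.5 and 42.1 TPM in embryonic samples and 28.9, 26.8 and 20.4 TPM in adult samples. Every adult value lay below every embryonic value (log2 difference -0.93, standard error 0.209, limma adjusted p = 0.00687).

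Since both SoxD genes are measured in each library, their ratio does not depend on how a library was scaled. Embryonic samples held 2.35, 2.82 and 2.96 Sox5 transcripts per Sox6 transcript, and adult samples held 7.24, 8.42 and 8.60. These ranges lay apart, and the exact two-sided permutation test gave p = 0.1, the smallest p that 3 samples against 3 allow (0.179 after Benjamini-Hochberg adjustment over 25 shares, sums and ratios). The summed level of Sox5 and Sox6 was 178, 197 and 167 TPM in embryonic and 238, 253 and 196 TPM in adult samples, which overlapped (exact permutation p = 0.2, adjusted 0.333). The ratio of Sox9 to Sox5 overlapped between stages, at 2.69 to 3.73 in embryonic and 2.81 to 3.99 in adult samples (exact permutation p = 0.5, adjusted 0.625). Sox9 outnumbered Sox6 by a factor of 7.61 to 11.0 in embryonic and of 20.4 to 33.6 in adult samples, without overlap (exact permutation p = 0.1, adjusted 0.179).

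The SoxC genes form 1 subgroup of the family, and all 3 were lower in adult samples. The RefSeq promoter table (GRCm38.p6) held windows for 6 of the 10 genes, and none for Sox9, Sox10, Sox17 and Sox18. For the 3 SoxC genes and Sox5 the bases before the annotated start that no annotated exon covers are shown 5′ to 3′, because they went in opposite directions between stages. The Sox5 window, the table's 1 window for that gene, lies before a RefSeq start inside the gene's span given above. It is the sole window of a gene called higher in adult samples. The windows of Sox6, lower like the SoxC genes, are not shown. In all, 6 short motifs were searched on both strands in the 250 bases before each start, and CCAAT (reverse complement ATTGG), shown in capitals, was singled out after the matches were seen.

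Sox4 chr13:28953714-28953949, minus strand: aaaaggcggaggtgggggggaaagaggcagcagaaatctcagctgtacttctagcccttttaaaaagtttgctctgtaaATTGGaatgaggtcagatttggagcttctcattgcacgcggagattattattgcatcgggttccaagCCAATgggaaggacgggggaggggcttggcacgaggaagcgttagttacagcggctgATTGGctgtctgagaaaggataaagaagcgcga

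Sox11 chr12:27342719-27342968, minus strand: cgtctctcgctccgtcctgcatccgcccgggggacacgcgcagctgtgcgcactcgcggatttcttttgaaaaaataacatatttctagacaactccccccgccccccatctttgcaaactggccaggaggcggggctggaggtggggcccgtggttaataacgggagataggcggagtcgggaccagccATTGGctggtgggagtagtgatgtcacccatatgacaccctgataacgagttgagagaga

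Sox12 chr2:152398064-152398296, minus strand: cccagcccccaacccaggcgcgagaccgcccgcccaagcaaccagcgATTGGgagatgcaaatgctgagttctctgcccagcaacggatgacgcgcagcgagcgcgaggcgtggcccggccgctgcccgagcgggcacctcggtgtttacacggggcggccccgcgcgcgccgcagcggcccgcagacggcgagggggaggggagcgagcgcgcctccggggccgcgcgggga

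Sox5 chr6:143947107-143947356, minus strand: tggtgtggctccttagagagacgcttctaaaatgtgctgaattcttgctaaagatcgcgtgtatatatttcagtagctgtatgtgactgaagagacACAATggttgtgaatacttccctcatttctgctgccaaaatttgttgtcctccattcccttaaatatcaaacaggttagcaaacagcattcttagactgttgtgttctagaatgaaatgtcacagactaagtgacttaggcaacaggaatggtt

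CCAAT stood 3 times in the Sox4 stretch and 1 time in each of the Sox11 and Sox12 stretches. In the Sox5 stretch, where capitals mark ACAAT, the core of SOX sites, that motif stood 1 time and CCAAT did not occur. CCAAT was also found in 2 of 6 Sox6 windows and not in that of Sox8, and in 33.9% of all 32851 windows of the table. ACAAT occurred in 27.7% of all windows and in none of the SoxC windows. Among the 11 windows of these SOX genes it was in 4, that of Sox5 and the others of Sox6. Since Sox6 was lower in adult samples, ACAAT did not follow the direction of change. The longer SOX core AACAAT stood in 9.42% of all windows and ACAAAG, a SOX-like or TCF-like site, in 16.5%. Neither was in a SoxC window, but of the 11 windows AACAAT was in 1 and ACAAAG in 5, all of Sox6. The TATA box TATAAA was in 12.4% of all windows and in no SoxC window, whereas the GC box GGGCGG was in 32.7% of all windows and in those of Sox11 and Sox12. Outside SoxC, TATAAA stood in a Sox6 window, and GGGCGG in a Sox6 window and that of Sox8. These are matches of letters and not measured binding.

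Sox11 (ENSMUSG00000063632, chr12:27334264-27342574, minus strand) measured 72.6, 64.0 and 58.6 TPM in the embryonic samples. It was at 1.22 and 0.189 TPM in adult replicates 1 and 2 and listed at 0 in adult replicate 3. The gap between the stages was wide, and the log2 difference of -5.57 (standard error 0.387, limma adjusted p = 1.39e-05) was the 49th lowest of the 13125 genes tested. The size depends on the pseudocount, since it was -7.59 with a pseudocount of 0.1.

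Sox4 (ENSMUSG00000076431, chr13:28948919-28953713, minus strand) measured 58.0, 46.1 and 70.3 TPM in embryonic and 14.1, 29.9 and 24.8 TPM in adult samples. Unlike Sox11 it stayed well above 0 in every adult sample (log2 difference -1.35, standard error 0.294, limma adjusted p = 0.00588). The annotation places 54.6% of its exonic bases also in Gm26735, a gene with no row in the matrix. With the strand setting not given, reads from these bases could have come from either gene.

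Sox12 (ENSMUSG00000051817, chr2:152393611-152398063, minus strand) measured 18.8, 12.7 and 19.3 TPM in embryonic samples and 5.39, 5.09 and 5.43 TPM in adult samples. The adult values were nearly equal to each other and below all embryonic values (log2 difference -1.49, standard error 0.315, limma adjusted p = 0.00515).

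Genes linked to SoxC factors in other tissues were described from a list of 7, all tested. In adult samples 5 were lower, none was higher, and 2 did not pass, with a median log2 difference of -2.68 beside 0.16 for all genes. The shares over all genes tested were 21.4% lower and 23.9% higher. Tead2, a Hippo pathway factor, went from 237 to 345 TPM in embryonic samples to 14.5, 21.7 and 0 TPM in adult samples. Stmn1, a microtubule regulator, went from 167 to 222 TPM to 11.4 to 16.0 TPM, and Marcks, an actin-binding protein, from 63.0 to 92.4 TPM to 3.45 to 14.95 TPM. Gdf5, a growth factor of the forming joint, and Hmga2 also fell, by 2.68 and 0.91 on the log2 scale. The neuronal genes Tubb3 and Dcx did not pass (adjusted p = 0.0712 and 0.0512). Without adult replicate 1 Tubb3 was higher (adjusted p = 0.0243), and Dcx was lower in 4 of 13 alternatives (adjusted p = 0.0231 to 0.0447 there).

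Like the SoxC genes, markers of dividing cells and the sum of neuron markers were lower in adult samples. Other marker lists, given further below, did not all go this way. All 10 markers of dividing cells were lower, against 21.4% of all genes tested. Their summed level was 761 to 826 TPM in embryonic and 27.1 to 109 TPM in adult samples. Neuron markers summed to 41.1 to 56.2 TPM in embryonic and 2.26 to 4.05 TPM in adult samples. Nefm and Nefl gave nearly all of the embryonic sum, while Elavl4 was at 0 in every sample and Snap25 and Syt1 never exceeded 0.458 TPM. The part of either in the SoxC result was not tested. In such bulk samples, fewer cells of a type and less RNA per cell cannot be told apart.

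**Figure D2:**
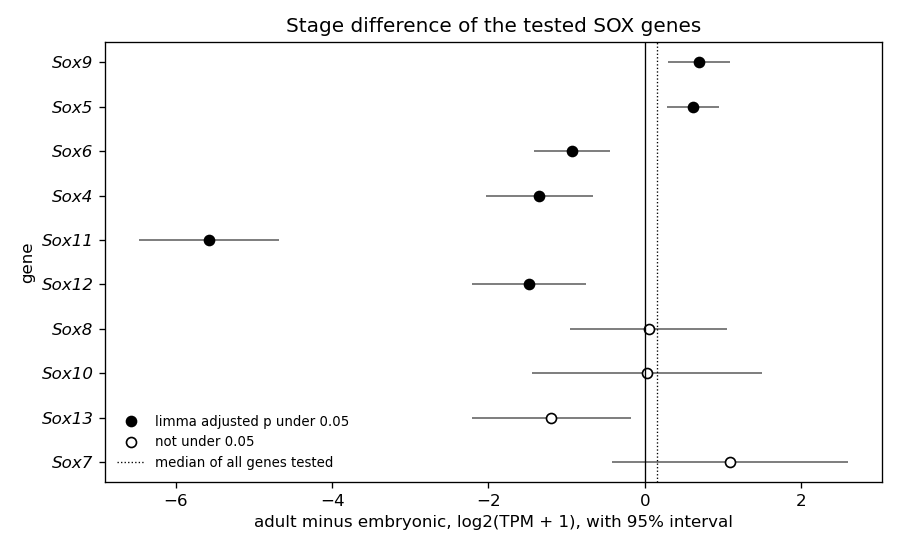
Points give the adult minus embryonic difference in log2(TPM + 1) of each tested SOX gene with its 95% interval, filled where the limma adjusted p was under 0.05, and the dotted line marks the median of all genes tested (0.16). Sox9 and Sox5 lie to the right of 0, Sox6, Sox4, Sox12 and Sox11 to the left, and the intervals of Sox8, Sox10 and Sox7 span 0.

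Sox8 (ENSMUSG00000024176, chr17:25565892-25570686, minus strand) measured 8.43, 8.98 and 6.73 TPM in embryonic samples and 4.31, 14.6 and 8.74 TPM in adult samples. The adult values lay on both sides of the embryonic ones. The log2 difference was 0.05 with a 95% interval of -0.94 to 1.04 (limma adjusted p = 0.931), so a change within that interval in either direction could not be told from no change. Of its exonic bases 10.6% also lie in 2810468N07Rik, a gene that reached at most 2.76 TPM.

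Sox10 (ENSMUSG00000033006, chr15:79154908-79165240, minus strand) measured 1.42, 2.56 and 0.038 TPM in embryonic and 0.311, 0.904 and 2.83 TPM in adult samples. The ranges overlapped, and the interval of the log2 difference ran from -1.43 to 1.49 (limma adjusted p = 0.972). Of 10 Schwann cell and neural crest markers, Foxd3 and Gfra3 were at 0 in every sample. The summed level of these markers was 70.4 to 87.5 TPM in embryonic and 7.86 to 9.68 TPM in adult samples, most of the former from Gap43, Ngfr and Fabp7, and their part in the Sox10 values was not tested.

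Sox17 (ENSMUSG00000025902, chr1:4490931-4497354, minus strand) was at 0.341 TPM in adult replicate 1 and listed at 0 in the other 5 samples, and 16.8% of its exonic bases also lie in Gm37587. Sox18 (ENSMUSG00000046470, chr2:181669836-181671640, minus strand) was at 0, 0 and 0.065 TPM in embryonic and 1.79, 0.219 and 0 TPM in adult samples. Both stayed under the minimum mean and were not tested. CD31, the product of Pecam1, had been used to remove vessel cells, and Pecam1 was at 1.29 to 1.75 TPM in embryonic and 2.79 to 6.87 TPM in adult samples. Of 14 endothelial markers 7 were tested. In adult samples 2 of these were lower, Erg and Tek, none was higher and 5 did not pass. Over all genes tested 21.4% were lower and 23.9% higher. The 14 markers summed to 90.6 to 108 TPM in embryonic and 30.9 to 47.6 TPM in adult samples. Erg alone gave 58.9 to 75.45 and 21.3 to 23.8 TPM of these sums. Cdh5, by contrast, never exceeded 2.36 TPM, and the part of vessel cells in the Sox18 values was not tested.

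The matrix held 9 further SOX genes and Sry. Sox13, the remaining SoxD gene, measured 8.86, 5.31 and 12.1 TPM in embryonic and 2.41, 2.37 and 4.91 TPM in adult samples. Its groups did not overlap, yet it missed the threshold (log2 difference -1.19, standard error 0.442, limma adjusted p = 0.0538). In 5 of 15 alternatives it passed, among them without embryonic replicate 2 (adjusted p = 0.0471) and without adult replicate 3 (0.0316). Sox7, a SoxF gene, was at 1.19, 1.58 and 0.853 TPM in embryos and at 6.87, 6.81 and 0.625 TPM in adults, where replicate 3 stood below all others (limma adjusted p = 0.209). Without adult replicate 3 its adjusted p was 0.013. Sox15 was listed at 0 in every embryonic sample but at 0.817, 0.847 and 1.13 TPM in adults, and Sox14, Sox21 and Sry were at 0 in all 6. Sox3 was at 2.43 and 0.809 TPM in embryonic replicates 1 and 2 and at 0 elsewhere, and Sox30 was at 2.24 TPM in adult replicate 3 alone. Sox1 and Sox2 stayed under 1 TPM in every sample.

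The make-up of the SOX transcripts was then described as shares of the summed TPM of the 10 genes, which was 723 to 790 TPM in embryonic and 854 to 1205 TPM in adult samples. Sox9, Sox5 and Sox6 together held 79.8%, 81.4% and 80.3% of it in embryonic samples and 96.8%, 95.8% and 95.3% in adult samples. The SoxC share went from 18.9%, 17.0% and 18.8% to 2.42%, 2.92% and 3.38%. Neither share overlapped between stages (exact two-sided permutation p = 0.1 for both, the smallest possible, adjusted 0.179). Sox9 alone held 54.2% to 59.1% in embryonic and 68.9% to 74.8% in adult samples. The share of Sox5 overlapped between stages, at 15.8% to 20.1% and 18.7% to 24.5% (exact permutation p = 0.3, adjusted 0.441). Sox8 and Sox10 together held 0.860% to 1.60% and 0.541% to 1.29%.

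**Figure D3:**
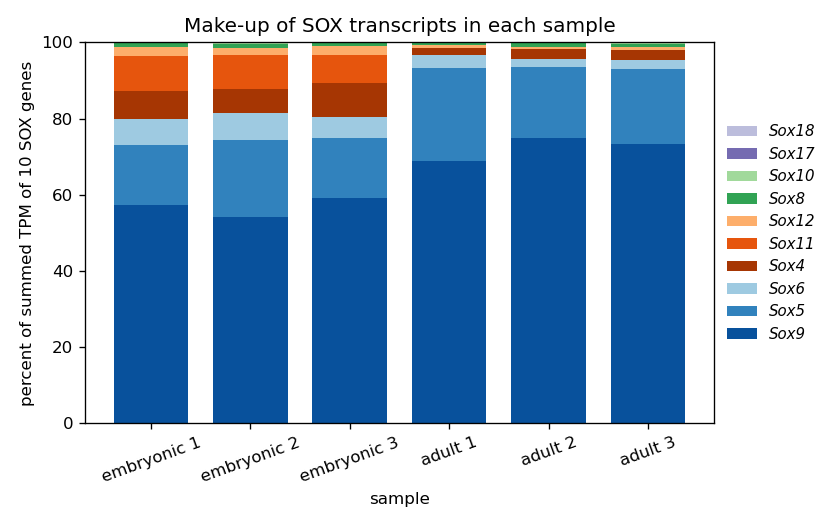
Each bar is one sample and its segments give the percent of the summed TPM of the 10 SOX genes held by each gene. Sox9, Sox5 and Sox6 (blues) took 79.8% to 81.4% of embryonic and 95.3% to 96.8% of adult SOX transcripts, and the SoxC genes (oranges) took 17.0% to 18.9% and 2.42% to 3.38%.

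Genes that SOX9, SOX5 and SOX6 are known to switch on in cartilage were taken as a list of 20, most of them collagens and other matrix proteins. All 20 were tested. In adult samples 14 were lower, 2 were higher and 4 did not pass, and the median log2 difference was -2.22, beside 0.16 for all genes. Among all genes tested, 21.4% were lower and 23.9% higher. Chad, the matrix protein chondroadherin, went from 115 to 139 TPM to between 4667 and 6557 TPM (log2 difference 5.40, limma adjusted p = 1.31e-07). Comp, cartilage oligomeric matrix protein, went from 553 to 606 TPM to between 1766 and 2662 TPM (1.89, adjusted p = 3.78e-05). Among the genes that fell, Matn1, encoding matrilin 1, was at 752 to 891 TPM in embryonic samples and listed at 0 in all adult samples. Epyc, a small proteoglycan, went from 201 to 221 TPM to between 0 and 5.04 TPM. Matn3, encoding matrilin 3, went from 181 to 234 TPM to between 1.11 and 3.65 TPM. Col2a1, the main cartilage collagen, fell by 1.73 on the log2 scale, and Col9a1, part of a collagen on its surface, fell by 5.48.

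Acan, the main proteoglycan of cartilage, was at 1306, 1018 and 1247 TPM in embryonic samples and 1265, 2672 and 1756 TPM in adult samples. It did not pass (log2 difference 0.61, limma adjusted p = 0.0717). Adult replicate 1, which was the lowest of the adult samples for Acan and the highest for Col2a1, weighed on this count. Without it 4 target genes were higher, with Acan (adjusted p = 0.0102) and Wwp2 (0.0365) added, and 15 were lower, with Snorc (0.0474) added.

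**Figure D4:**
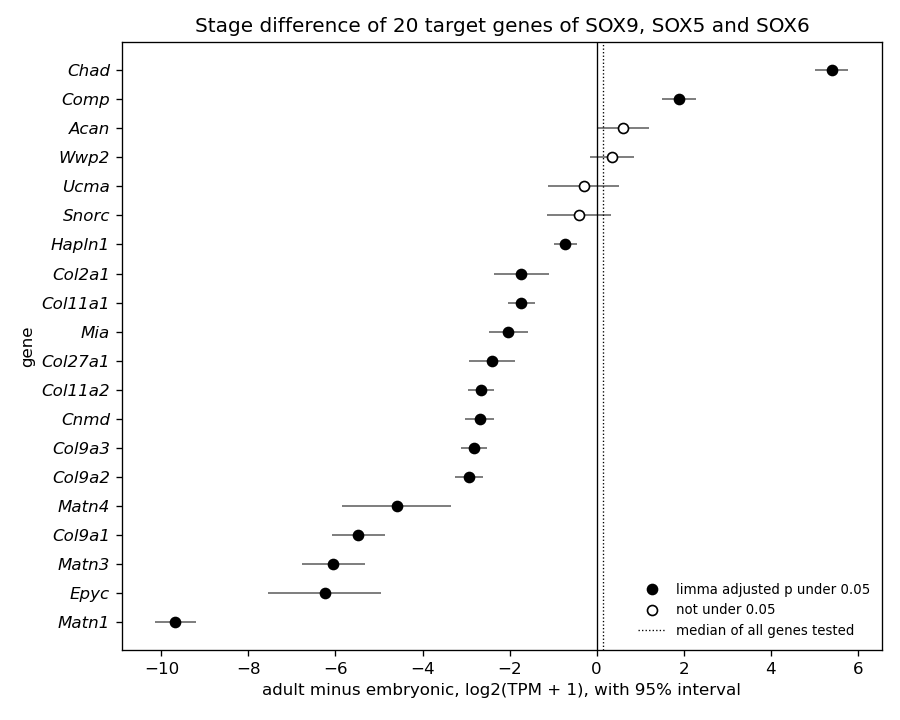
Points give the adult minus embryonic difference in log2(TPM + 1) of 20 known target genes of SOX9, SOX5 and SOX6 with its 95% interval, filled where the limma adjusted p was under 0.05; the dotted line is the median of all genes tested. Chad and Comp were higher in adult samples, 14 genes were lower, and Acan, Wwp2, Ucma and Snorc did not pass.

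Ratios to Sox9 in the same library were taken for Col2a1, Col9a1, Chad, Comp and Acan alone, and these parted in direction. In the whole list of 20 targets, without such a ratio, 14 were lower in adult samples and 2 higher. Embryonic samples held 32.4, 36.1 and 32.8 Col2a1 transcripts per Sox9 transcript, and adult samples held 12.0, 3.51 and 5.89. For Chad the same ratio was 0.308, 0.294 and 0.254 in embryonic and 7.93, 7.28 and 7.32 in adult samples. Neither ratio overlapped between stages (exact permutation p = 0.1 for both, adjusted 0.179). The ratio of Acan to Sox9 overlapped, at 2.89, 2.60 and 2.68 in embryonic and 2.15, 2.97 and 2.67 in adult samples (exact permutation p = 0.8, adjusted 0.833).

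**Figure D5:**
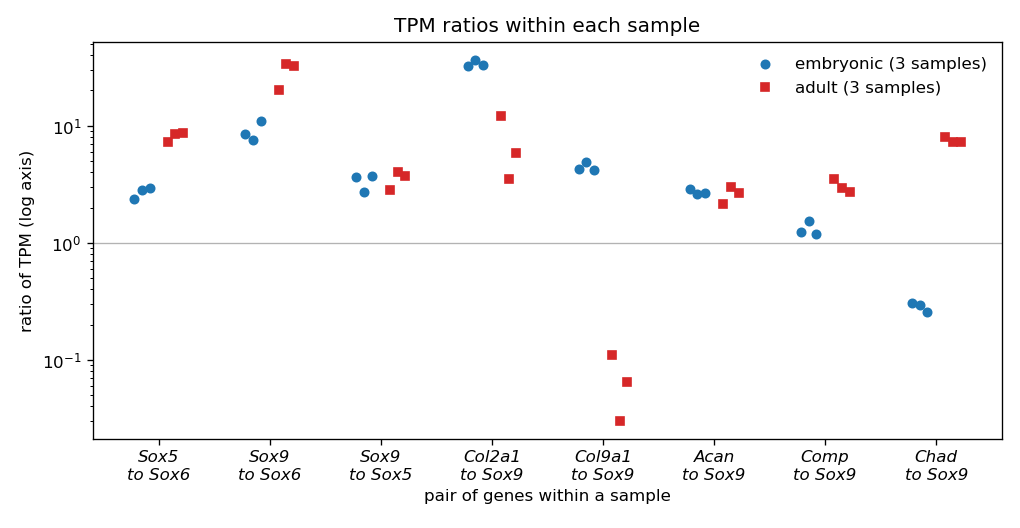
Each point is the ratio of the TPM of a pair of genes in one sample, on a log axis (blue circles, 3 embryonic samples; red squares, 3 adult samples). The ratio of Sox5 to Sox6 was 2.35 to 2.96 in embryonic and 7.24 to 8.60 in adult samples, Col2a1 to Sox9 and Col9a1 to Sox9 were lower in adult samples, Chad to Sox9 and Comp to Sox9 were higher, and Acan to Sox9 and Sox9 to Sox5 overlapped.

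Partners and cofactors of SOX9 were taken as a list of 12. Of these, 4 were lower in adult samples, none was higher and 8 did not pass, with a median log2 difference of -0.02. Over all genes 21.4% were lower and 23.9% higher. Arid5b, which helps SOX9 act on chromatin, differed by -1.56 on the log2 scale and the coactivator gene Ncoa1 by -1.10. The count of lower genes was 2 when embryonic replicate 1 or adult replicate 1 was left out. With adult replicate 2 left out 3 were lower and 1 was higher, Kat5 (adjusted p = 0.0462). Ep300, the coactivator p300, was at 53.5 to 66.7 TPM in embryonic and 59.0 to 82.4 TPM in adult samples (limma adjusted p = 0.563).

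Signals that act upstream of SOX9 were taken as a list of 12. Of 11 tested, 7 were lower and 2 higher, with a median log2 difference of -0.76. All genes tested had 21.4% lower and 23.9% higher. The growth factor genes Fgf18, Bmp4 and Tgfb2 fell by 3.35, 2.97 and 2.12 on the log2 scale. Trpv4, a cation channel that responds to load, was 0.74 higher and Bmp2 0.52 higher. Bmp2 lost its call in 7 of 15 alternatives, with an adjusted p of up to 0.0814. Of the genes called lower, Tgfbr2 lost its call in 11 of 15 alternatives and Pthlh in 6. Without embryonic replicate 3 the counts were 3 lower and 1 higher, and 5 were lower without embryonic replicate 1 or without adult replicate 1. Bmpr1b, the receptor gene used for the sort, was at 16.4 to 20.3 TPM in embryonic and 4.51, 18.45 and 13.4 TPM in adult samples (adjusted p = 0.199).

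Factors of chondrocyte hypertrophy and of other mesenchymal fates were taken as a list of 12. Of these, 3 were lower in adult samples, 2 were higher and 7 did not pass, with a median log2 difference of -0.37. Against 21.4% lower and 23.9% higher among all genes, these counts lay near the background. The repressor genes Twist1, Twist2 and Snai2 fell by 1.82, 1.74 and 0.92 on the log2 scale. Foxa3 and Mef2d, which encode factors of hypertrophic chondrocytes, were 1.59 and 0.52 higher. Foxa2 and Mef2c, from the same list, did not pass (log2 difference 0.187 and 0.095, limma adjusted p = 0.709 and 0.817). Runx2, the master factor of bone and hypertrophy, was at 22.4 to 35.0 TPM in embryonic and 12.4 to 21.3 TPM in adult samples and did not pass (adjusted p = 0.0659). With quantile normalization 5 rather than 3 factors were lower.

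The cells carried the markers of cartilage at both stages. Col2a1 lay between 3166 and 15251 TPM over the 6 samples and Acan between 1018 and 2672 TPM, although Matn1 was listed at 0 in adult samples. Of 9 cartilage markers, 6 were lower and 2 higher in adult samples, and Prg4, which encodes the lubricant of the joint surface, went from 123 to 194 TPM to between 23818 and 26392 TPM. Leukocyte markers summed to 6.12 to 14.7 TPM in embryonic and 21.6 to 98.3 TPM in adult samples, and Ptprc, whose product CD45 was used to remove leukocytes, never exceeded 2.29 TPM. Skeletal muscle markers summed to 19.6 to 25.7 and 1.35 to 15.01 TPM, and erythroid markers, of cells known for Sox6, to 0.655 to 62.1 and 2.74 to 9.54 TPM. Osteoblast markers summed to 4913 to 5996 TPM and 516 to 1041 TPM, with Col1a1 at 4862 to 5971 and 170 to 637 TPM and Ibsp at 0.148 to 29.6 and 235 to 316 TPM, and tendon and fibroblast markers to 5288 to 5963 and 5535 to 6756 TPM. Of the 7 tendon and fibroblast markers, 3 were lower in adult samples, 1 was higher and 3 did not pass. Tnmd, Scx and Col3a1 had log2 differences of -6.58, -4.50 and -4.17, and Dcn had one of 4.44. Beside these counts, 21.4% of all genes tested were lower and 23.9% higher. The part of all these markers in the SOX results was not tested.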

How the data were processed

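RNA-seq values of 6 samples of sorted mouse knee chondrocytes, 3 embryonic and 3 adult, were used. The authors aligned single-end reads to GRCm38 with RefSeq annotations and quantified them by RSEM. What they deposited are log2(TPM + 1) values of 22032 genes under Ensembl identifiers. The RSEM version and the strand setting are not given in the sources used here. The labels and the methods name different library kits. Back on the linear scale every sample summed to 1000000 TPM. A listed 0 is not proof of absence: 6 times in the matrix a gene was at 0 in a sample while both other samples of that stage were at 20 TPM or more.

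Symbols and positions came from GENCODE M21 (21902 identifiers matched, 130 without a symbol), and promoter windows from RefSeq. Stages were compared with limma 3.58.1 in R 4.3.3 (lmFit, eBayes with trend, stage as the sole term) on the deposited scale, whose pseudocount is 1, keeping genes that averaged 1 TPM or more. EBSeq, named in the methods, needs counts and was not used here. Changes of low genes come out too small on this scale. The limma code was run on simulated data with few changed genes. That setting differs from these data, where 45.3% of genes tested were called, and does not gauge the calls made here. Shares, sums and ratios of TPM were compared by exact two-sided permutation tests in scipy 1.17.1. Figures were drawn with matplotlib 3.10.9.

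The SOX genes, the 5 gene lists and the 10 marker lists were chosen with earlier results of these data known, and the ratios between genes and the motif singled out were chosen after their values were seen. The text names all SOX genes of the matrix, up to 3 genes per direction from each list of more than 6 tested genes (those past the threshold that changed most), other list genes where a sentence turns on them, and for Sox9, Sox5, Sox6 and Sox4 the 3 genes with the most similar pattern. A few genes of the lists and patterns are not reported here. The alternatives tried were 0.1 as pseudocount, a minimum mean of 5 TPM, no minimum, 3 other scalings, eBayes without trend or robust, a replicate block, an adjusted p of 0.01 and each sample left out in turn.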

Additional observations from a re-analysis of the deposited data

How the results depend on the processing

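The calls of Sox9, Sox5, Sox6, Sox4, Sox11 and Sox12 held in direction and at an adjusted p of 0.05 under all 15 alternatives run on them, with the highest adjusted p at 0.0485 for Sox9 and 0.0403 for Sox5. When single samples were left out, the log2 difference ranged from 0.51 to 0.82 for Sox9, 0.54 to 0.72 for Sox5, -1.03 to -0.79 for Sox6, -1.56 to -1.05 for Sox4, -5.92 to -5.34 for Sox11 and -1.67 to -1.39 for Sox12. At an adjusted p of 0.01 the number of SOX genes higher in adult samples was 1, since Sox9 missed it, and 5 SOX genes passed in all. The number of target genes higher in adult samples ranged from 2 to 4 with samples left out. Of the SOX9 partners, 2 rather than 4 were lower with quantile normalization, without the 20 highest genes, without the eBayes trend and with the replicate block. Of the upstream signals, 4 rather than 7 were lower without the eBayes trend.

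The median log2 difference of all genes was 0.16 as deposited, 0.09 after quantile normalization, 0.03 with median-of-ratios scaling and 0.25 without the 20 highest genes. Less the median as deposited, Sox9 and Sox5 were 0.54 and 0.46 higher. Sox8 turned to -0.14 with quantile normalization and -0.079 with median-of-ratios scaling, and ranged from -0.32 to 0.46 with samples left out. Sox10 turned to -0.048 with median-of-ratios scaling and ranged from -0.47 to 0.42. Their adjusted p was at least 0.356 throughout. The share of Sox8 and Sox10 differed by -0.379 to 0.0582 percentage points with samples left out. The causes were not tested. Leaving out 1 sample, the permutation test cannot go below 0.2. Sox10 has no value with a minimum mean of 5 TPM.

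With the replicate number as a block (replicate block) 5430 genes were called, against 5949 without, and 6 SOX genes passed in both. Deviations of same-numbered samples had correlations of -0.0088, -0.0169 and -0.0223. No pairing by number was seen, but with 3 samples a stage such a check cannot exclude one. With 3 samples a stage and no read depth in TPM, differences of the size of those of Sox8 and Sox10 were not detectable.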

Other observations

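The genes whose log2(TPM + 1) followed a SOX gene most closely over the 6 samples are given as a description, since the step between stages sets most of each correlation. For Sox9 they were 1700020L24Rik, 0610009B22Rik and Apbb1, with Pearson's r of 0.996, 0.994 and 0.991, all highest in adult replicate 2 as Sox9 was. For Sox5 they were Jade2, Cbx7 and 1600014C10Rik (r = 0.998, 0.997 and 0.996), and Cbx7 was at 0, 1.08 and 0 TPM in embryonic and 15.6, 17.3 and 4.99 TPM in adult samples. For Sox6 they were Slc8a1, Tbx2 and Cbfb (r = 0.996, 0.995 and 0.994), where Cbfb, which encodes the partner of RUNX proteins, went from 161 to 184 TPM to between 106 and 132 TPM. For Sox4 they included Oaz2 and Scyl2 (r = 0.994 and 0.993). Between 184 and 339 genes had r over 0.95 with one of these 4 SOX genes, so the first 3 stand out little from those that follow.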
